A study of Mus musculus with 12 samples.

Results

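The axon guidance genes described here are the semaphorins and their plexin and neuropilin receptors, the ephrins and Eph receptors, the Slits and Robo receptors, and the netrins and Unc5 receptors. They were chosen by name: protein-coding genes whose symbol in the GENCODE M21 annotation belongs to one of these families. All 70 such genes were found among the 55487 genes of the count table. The study comprised 12 mouse RNA-seq libraries in 4 groups of 3: Hepa1 in ferroptotic medium, Hepa1 in control medium, MEFs in ferroptotic medium and MEFs in control medium. Hepa1 is a hepatoma line labelled wild type, and the MEFs are primary embryonic fibroblasts labelled Bach1-/-. Recipient cells grew for 4 days, with daily changes, in medium that immortalised MEFs had conditioned over 48 h, and the donors were controls for the control medium and Bach1-re-expressing cells, labelled ferroptotic, for the ferroptotic medium. All 4 groups also received 2-mercaptoethanol at 0.1 mM and vitamin E at 0.4 mg/mL. Every MEF library is labelled Bach1-/- and every Hepa1 library wild type, so cell type and labelled genotype cannot be told apart.

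Guidance ligands steer migrating cells and growing axons by attracting or repelling them. Class 3 semaphorins are secreted and act mostly through neuropilins paired with plexins, whereas the membrane-bound semaphorins bind plexins directly. Ephrins stay on the cell surface and signal to Eph receptor tyrosine kinases on neighbouring cells, Slits bind Robo receptors, and netrins bind Dcc, neogenin and the Unc5 receptors. Outside the nervous system the same proteins shape blood vessels, epithelia and connective tissue.

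The libraries held between 18.58 M and 23.4 M reads assigned to genes, and 3 reads in 1 library correspond to 0.128 to 0.161 CPM (reads of a gene scaled to a common library total). All 10 fibroblast markers reached 1 CPM in the MEFs, where Alb (albumin) had 0 reads. Of the same 10 markers, 6 reached 1 CPM in Hepa1 in ferroptotic medium and 4 in control medium. Dcn, one of them, went the other way, at 257 to 350 CPM in Hepa1 against 3.19 to 14.6 CPM in MEFs. In Hepa1, 4 of 10 hepatocyte and hepatoma markers reached 1 CPM, Ttr and Apoa1 had 0 reads, and the list summed to between 1649 and 1800 CPM in ferroptotic medium, against 485 to 500 CPM in control medium. That rise lay mainly in Alb, with 18220 reads against 1988, and Trf, with 78840 against 23484, while Afp had 3918 against 3470. In MEFs 1 of these 10 markers reached 1 CPM, Trf, at 8.08 to 25.1 CPM. Bach1 itself had 5021 reads in MEFs in ferroptotic medium and 5026 in control medium, and 7102 reads in Hepa1 in ferroptotic medium and 8395 in control medium, so whole-gene counts do not check the knockout. The third Hepa1 library in ferroptotic medium stood apart. Over 37 other genes that are abundant in MEFs and nearly absent from Hepa1 in control medium, it held 0.113% of the MEF level, against 0.00823 and 0.0136% in its 2 companions and 0.00462 to 0.00912% in the Hepa1 control libraries. The control values are low by the choice of these genes, so only the 2 companions serve as a comparison.

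The MEFs carried more of this gene family than Hepa1. Summed over the 70 genes, the level ran from 2463.8 to 2495.5 CPM in Hepa1 in ferroptotic medium and from 2835.1 to 2941.3 CPM in Hepa1 in control medium. It ran from 4861.5 to 4944.2 CPM in MEFs in ferroptotic medium and from 4225.1 to 4252.4 CPM in MEFs in control medium. The sum was thus lower in ferroptotic than in control medium in every Hepa1 library and higher in every MEF library. A mean of 1 CPM was reached by 28 genes in Hepa1 in ferroptotic medium, 27 in Hepa1 in control medium, 54 in MEFs in ferroptotic medium and 51 in MEFs in control medium. In these bulk samples, fewer cells of a kind and less RNA per cell cannot be told apart.

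**Figure D1:**
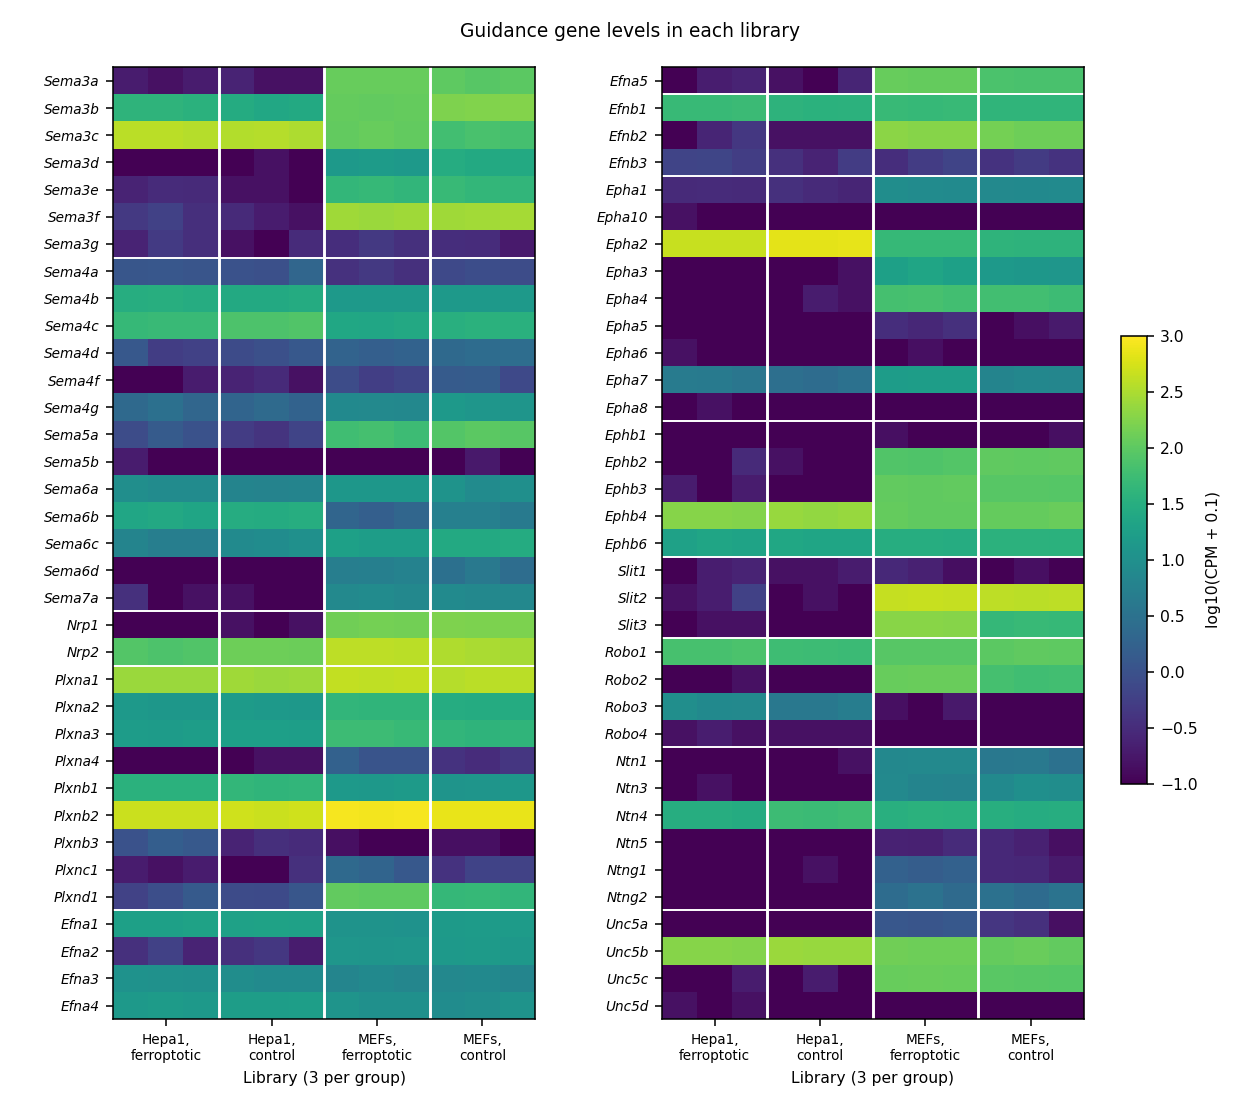
Heat map of all 70 guidance genes (rows, ordered by role, white lines between roles) in the 12 libraries (columns, 3 per group), coloured by log10(CPM + 0.1). Plxnb2, Plxna1, Sema3c, Nrp2, Ephb4 and Unc5b are bright in both cell types, while Slit2, Sema3f, Nrp1 and Ephb2 are bright in MEFs and dark in Hepa1.

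Length-scaled levels (mean CPM per kilobase of exon) showed which genes led in control medium. In Hepa1 the order was Epha2 at 150.0 CPM per kilobase, Plxnb2 at 65.1, Ephb4 at 51.3, Sema3c at 47.6, Unc5b at 39.3, Plxna1 at 28.7, Sema4c at 16.9 and Ntn4 at 14.6. In MEFs it was Plxnb2 at 95.6 CPM per kilobase, Sema3f at 53.7, Plxna1 at 41.3, Sema3b at 36.3, Nrp2 at 26.0, Ephb4 at 25, Efnb2 at 19.7 and Unc5b at 18.3. Plxnb2, the plexin-B receptor of class 4 semaphorins, Plxna1, a co-receptor for class 3 and class 6 semaphorins, Ephb4, the ephrin-B2 receptor, and Unc5b, a netrin receptor known from blood vessels, were in both lists. At the other end, 7 genes had at most 3 reads in each of the 12 libraries: Epha6, Epha8, Epha10, Ephb1, Robo4, Sema5b and Unc5d. Epha5, Efnb3, Ntn5, Sema3g and Slit1 also stayed under a mean of 1 CPM in every group. At these depths their expression was not detectable or close to the floor.

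The promoters of 8 genes on which the responses turn are shown because these genes moved in different directions: Slit3, Plxnd1, Robo2 and Nrp2 rose in MEFs, Sema3d, Sema4c and Sema5a fell in MEFs, and Nrp2, Epha2 and Sema4c fell in Hepa1 while Sema5a rose there. Each line holds the 250 bases before the RefSeq start (GRCm38.p6), 5′ to 3′ on the gene's strand. Capitals mark matches on either strand to TGANTCA (the AP-1 site), TGACNNNGC (the antioxidant response element core read by Nrf2 and Bach1), GGAATG (the TEAD motif) or GGGCGG (the GC box).
Slit3 (chr11:35121206-35121455, plus strand): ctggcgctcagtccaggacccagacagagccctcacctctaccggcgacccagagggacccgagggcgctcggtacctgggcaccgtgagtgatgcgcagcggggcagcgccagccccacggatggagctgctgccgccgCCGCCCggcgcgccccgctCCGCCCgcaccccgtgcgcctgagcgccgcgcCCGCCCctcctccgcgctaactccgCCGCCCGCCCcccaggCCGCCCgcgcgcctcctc
Plxnd1 (chr6:115995006-115995255, minus strand): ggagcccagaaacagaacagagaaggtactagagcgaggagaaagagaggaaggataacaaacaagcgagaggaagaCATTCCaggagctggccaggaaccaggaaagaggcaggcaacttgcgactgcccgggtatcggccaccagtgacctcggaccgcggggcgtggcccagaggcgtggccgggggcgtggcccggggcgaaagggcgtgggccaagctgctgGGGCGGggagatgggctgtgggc
Robo2 (chr16:74411826-74412075, minus strand): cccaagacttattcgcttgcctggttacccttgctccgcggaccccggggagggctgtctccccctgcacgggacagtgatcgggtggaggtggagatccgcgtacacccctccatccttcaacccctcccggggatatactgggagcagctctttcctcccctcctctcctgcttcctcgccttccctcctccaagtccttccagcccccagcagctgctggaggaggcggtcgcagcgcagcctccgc
Nrp2 (chr1:62703067-62703316, plus strand): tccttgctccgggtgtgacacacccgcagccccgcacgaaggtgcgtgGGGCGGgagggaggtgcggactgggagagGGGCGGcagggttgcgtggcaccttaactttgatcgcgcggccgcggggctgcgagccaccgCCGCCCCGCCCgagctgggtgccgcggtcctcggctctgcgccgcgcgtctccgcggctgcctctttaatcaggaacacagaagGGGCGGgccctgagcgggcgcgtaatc
Sema3d (chr5:12382916-12383165, plus strand): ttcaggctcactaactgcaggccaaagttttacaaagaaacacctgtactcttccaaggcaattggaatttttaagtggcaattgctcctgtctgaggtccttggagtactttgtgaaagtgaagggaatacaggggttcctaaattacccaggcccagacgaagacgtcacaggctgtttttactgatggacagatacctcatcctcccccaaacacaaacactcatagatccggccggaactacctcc
Sema4c (chr1:36558382-36558631, minus strand): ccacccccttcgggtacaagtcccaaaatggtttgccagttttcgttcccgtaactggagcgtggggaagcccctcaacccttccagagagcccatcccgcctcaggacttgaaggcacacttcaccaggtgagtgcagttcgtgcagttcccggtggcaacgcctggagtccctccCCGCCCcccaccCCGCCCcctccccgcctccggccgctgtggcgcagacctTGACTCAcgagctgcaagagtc
Sema5a (chr15:32244563-32244812, plus strand): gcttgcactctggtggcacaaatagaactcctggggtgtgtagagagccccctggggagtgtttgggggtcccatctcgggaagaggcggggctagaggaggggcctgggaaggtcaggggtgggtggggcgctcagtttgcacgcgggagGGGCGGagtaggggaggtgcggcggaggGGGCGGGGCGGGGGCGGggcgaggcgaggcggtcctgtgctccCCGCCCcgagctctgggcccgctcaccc
Epha2 (chr4:141300971-141301220, plus strand): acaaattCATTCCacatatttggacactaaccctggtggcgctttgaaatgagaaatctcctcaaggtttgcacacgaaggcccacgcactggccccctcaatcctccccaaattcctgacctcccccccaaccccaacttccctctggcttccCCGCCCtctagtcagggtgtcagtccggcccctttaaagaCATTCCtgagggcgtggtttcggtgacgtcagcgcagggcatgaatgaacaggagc
Windows were found for 61 of the 70 genes, and not for Efnb3, Ntn1, Plxna1, Plxna4, Sema3b, Sema3f, Sema6a, Slit1 and Unc5d. TGANTCA, which can match both strands at the same site, was present in 1.64% of the 61 windows, that of Sema4c alone, and in 6.75% of all 32851 promoter windows. TGACNNNGC was present in 11.5% of the 61 windows and 10.2% of all, and GGAATG in 13.1% and 12.6%. GGGCGG was present in 72.1% of the 61 windows and 32.7% of all. The 61 are 1 window per gene, the one nearest the GENCODE start, whereas the full set can hold several per gene, so the shares come from unlike sets. The windows of Robo1, Sema3a and Sema4d lie 354843, 271370 and 37064 bases from the GENCODE start. Among the windows shown, that distance is 232 bases for Slit3, 219 for Sema3d and 0 to 32 for the others. The GENCODE gene of Slit3 begins at 35121224, so most of its window lies inside the annotated gene. The Robo2 and Sema3d windows held none of the 4 letter strings. The Slit3, Sema5a and Nrp2 windows held 6, 5 and 5 GC boxes, and the Sema4c window 2. The Plxnd1 and Epha2 windows held GGAATG on the reverse strand and 1 GC box each.

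In MEFs, most plexins tested, both Slits tested, Unc5b and Unc5c were higher in ferroptotic than in control medium, and most membrane-bound semaphorins tested were lower. Of the 70 genes, 56 passed the filter on low counts, 27 rose and 19 fell at an adjusted p under 0.05 in edgeR's quasi-likelihood test over all genes. That is 48.2% higher and 33.9% lower, where the share over all 14441 genes tested was 27.8% higher and 27.2% lower, 55.0% in all. The higher calls include Ntng1, Unc5a, Plxna4 and Plxnc1, which passed the filter only through the ferroptotic libraries. The lower calls include Sema4a, which passed it only through the control libraries. These shares are thus no support for a rise of the family. The median log2 change of the 56 was 0.10, against 0.00 over all genes tested, and the median absolute change was 0.38, against 0.20. Scaled by library totals alone, the guidance genes gave 30 higher and 19 lower, and all genes 5211 higher and 2957 lower in place of 4009 and 3934. Neuronal and glial markers summed to between 44.8 and 47.6 CPM in ferroptotic medium and 27.3 to 31.1 CPM in control medium. Most of that sum was Map2, at 46.7, 45.8 and 43.6 CPM in ferroptotic medium against 29.9, 29.1 and 25.9 CPM in control medium. Map2 had 3028 reads in ferroptotic medium and 1839 in control medium. Mbp went the other way, with 18 reads in ferroptotic medium and 67 in control medium, and Rbfox3 and Sox10 had 0 reads in both. The part of these marker shifts in the results was not tested.

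**Figure D2:**
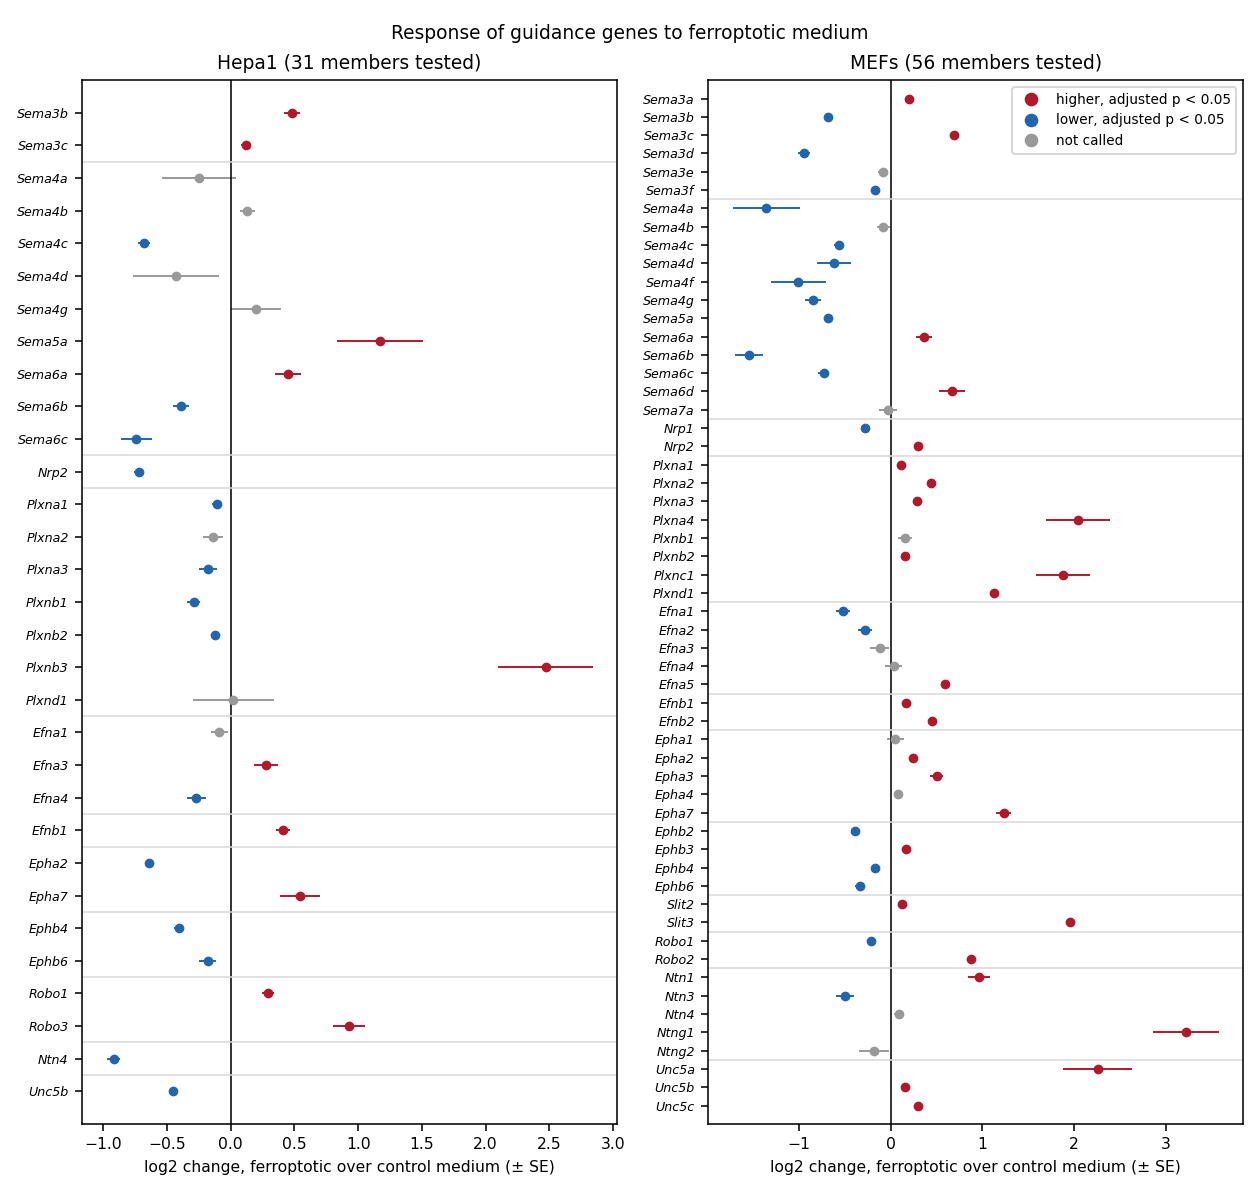
Log2 change in ferroptotic over control medium (x axis, points with SE bars) of each guidance gene tested in Hepa1 (left, 31 genes) and MEFs (right, 56 genes), grouped by role with grey lines; red points are higher, blue points lower and grey points not past an adjusted p of 0.05. The 8 plexins of the MEF panel all lie right of 0, Plxnb1 without passing the test, and 8 of 12 membrane-bound semaphorins are blue.

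Slit3, a secreted Robo ligand (ENSMUSG00000056427, GRCm38 chromosome 11, 35121224 to 35708507), had 191, 197 and 188 CPM in ferroptotic medium, against 46.2, 48.6 and 47.4 CPM in control medium. The groups lie far apart, and the log2 change was 1.95 ± 0.0349 (SE, n = 3 libraries each; edgeR adjusted p = 1.7e-43). Slit2, the most abundant Slit, had 452, 462 and 446 CPM in ferroptotic medium, against 402, 391 and 403 CPM in control medium, a log2 change of 0.12 ± 0.0281 (SE; edgeR adjusted p = 0.000344). The Robo receptors moved in opposite directions. Robo2 (ENSMUSG00000052516, chromosome 16, 73891839 to 74411825) had 117, 123 and 120 CPM in ferroptotic medium, against 66.4, 58.9 and 61.2 CPM in control medium, and rose by 0.88 ± 0.0366 on the log2 scale (SE; edgeR adjusted p = 3.85e-27). Robo1 had 91.2, 92.6 and 91.5 CPM in ferroptotic medium, against 97.5, 104 and 103 CPM in control medium, and fell by 0.22 on the log2 scale (edgeR adjusted p = 3.3e-07). So Slit3 and Robo2, a ligand and a receptor of one pathway, were both higher in ferroptotic medium, without overlap between the groups.

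Of the 8 plexins tested in MEFs, 7 rose and 0 fell. Plxnd1, the receptor of Sema3e (ENSMUSG00000030123, chromosome 6, 115954811 to 115995005), had 108, 102 and 101 CPM in ferroptotic medium, against 45.3, 47 and 43.1 CPM in control medium, a log2 change of 1.13 ± 0.0393 (SE; edgeR adjusted p = 1.5e-30). Its ligand Sema3e had 44.3, 47.5 and 42.4 CPM in ferroptotic medium, against 49.3, 44.2 and 42.4 CPM in control medium, values that overlap (edgeR adjusted p = 0.123). Plxna4 had 1.66, 1.01 and 0.983 CPM in ferroptotic medium, against 0.283, 0.221 and 0.333 CPM in control medium, a log2 change of 2.04 ± 0.348. Plxnc1, the receptor of Sema7a, had 2.22, 1.88 and 1.15 CPM in ferroptotic medium, against 0.283, 0.53 and 0.524 CPM in control medium, a log2 change of 1.88 ± 0.297. Both of these low-level plexins passed the test, but they rest on 18 and 29 reads over the 3 control libraries. They also passed the low-count filter only through the ferroptotic libraries, so their calls are no support for a rise of the plexins as a set. Of the other plexins, log2 changes were 0.44 for Plxna2, 0.29 for Plxna3, 0.16 for Plxnb2 and 0.11 for Plxna1, each past the test. Plxnb1 had a change of 0.16 with an adjusted p of 0.0796 in edgeR. The neuropilins, which carry class 3 semaphorins to plexins, split, with Nrp2 at 405, 405 and 384 CPM in ferroptotic medium against 330, 310 and 284 CPM in control medium, and Nrp1 at 135, 144 and 143 CPM in ferroptotic medium against 166, 162 and 161 CPM in control medium. Nrp2 rose by 0.30 and Nrp1 fell by 0.28 on the log2 scale, without overlap.

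Class 3 semaphorins went both ways in MEFs. Sema3d (ENSMUSG00000040254, chromosome 5, 12383385 to 12588948) had 14.6, 15.7 and 14.4 CPM in ferroptotic medium, against 29.4, 26.4 and 26.9 CPM in control medium, and fell by 0.95 on the log2 scale (edgeR adjusted p = 6.63e-19). Sema3b had 114, 111 and 112 CPM in ferroptotic medium, against 169, 174 and 178 CPM in control medium, and fell by 0.69 (edgeR adjusted p = 7.95e-26). Sema3c, which attracts some migrating cells, had 108, 119 and 108 CPM in ferroptotic medium, against 61, 70.9 and 66.2 CPM in control medium, and rose by 0.69 (edgeR adjusted p = 1.87e-20). In each of the 3 genes the groups do not overlap. Sema3f fell by 0.17 and Sema3a rose by 0.20 on the log2 scale, both called.

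Among membrane-bound semaphorins 8 of 12 fell and 2 rose. Sema6b had 1.94, 1.51 and 2.01 CPM in ferroptotic medium, against 5.51, 5.34 and 4.43 CPM in control medium, and fell by 1.55 on the log2 scale. Sema5a, whose extracellular part carries thrombospondin repeats (ENSMUSG00000022231, chromosome 15, 32244810 to 32696341), had 58.6, 66 and 54.6 CPM in ferroptotic medium, against 84.7, 97.2 and 91.2 CPM in control medium, and fell by 0.68. Both groups are separate in each gene. Sema4g fell by 0.85 with 7.77, 7.41 and 7.35 CPM in ferroptotic medium against 14.1, 12.5 and 12.2 CPM in control medium. Sema6c fell by 0.73 with 18.4, 16.7 and 16.8 CPM in ferroptotic medium against 27.2, 26.7 and 28.4 CPM in control medium. Sema4d, a ligand of plexin-B1, fell by 0.62 with 1.8, 1.51 and 1.71 CPM in ferroptotic medium against 2.26, 2.52 and 2.62 CPM in control medium. Sema4f fell by 1.01 with 0.74, 0.458 and 0.556 CPM in ferroptotic medium against 1.32, 1.37 and 0.667 CPM in control medium, values that overlap, and its call was lost in DESeq2's Wald test (adjusted p = 0.0599). Sema4a and Sema4c were the other genes that fell. Sema4a, with 20 reads in ferroptotic medium and 48 in control medium, passed the low-count filter only through the control libraries. The exceptions were Sema6d, which rose by 0.67 with 4.95, 5.22 and 5.9 CPM in ferroptotic medium against 2.92, 4.02 and 2.62 CPM in control medium, and Sema6a, which rose by 0.36.

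Of the netrin family, Ntn1, the secreted netrin-1, had 7.35, 7.6 and 7.56 CPM in MEFs in ferroptotic medium, against 3.86, 4.06 and 3.05 CPM in control medium, and rose by 0.96 on the log2 scale. Ntng1, a membrane-anchored netrin-G that does not bind the classical netrin receptors, had 1.62, 1.42 and 1.62 CPM in ferroptotic medium against 0.188, 0.177 and 0.0952 CPM in control medium and had the highest fitted change of the 56 genes, 3.22 ± 0.36. It rests on 10 reads over the control libraries and passed the low-count filter only through the ferroptotic libraries. Ntn3, which shares exon sequence on the same strand with Tbc1d24, fell by 0.50. All 3 Unc5 receptors tested rose: Unc5a by 2.26 with 1.11, 1.05 and 1.15 CPM in ferroptotic medium against 0.33, 0.265 and 0.0476 CPM in control medium, Unc5c by 0.30 and Unc5b by 0.15. Unc5a rests on 14 reads in the control libraries and its exons overlap those of Hk3 on the other strand. It passed the low-count filter only through the ferroptotic libraries, so its call is no support for a rise of the Unc5 receptors as a set.

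Ephrins and Eph receptors in MEFs moved in both directions. Of the EphA receptors, which bind mainly ephrin-A ligands, 3 of 5 tested rose and 0 fell, 60.0% called in all and near the 55.0% of all genes tested. Epha7 had 16.1, 17 and 16.5 CPM in ferroptotic medium, against 6.22, 7.11 and 6.86 CPM in control medium, and rose by 1.23 on the log2 scale (edgeR adjusted p = 2.36e-18). Epha3 rose by 0.50 and Epha2 by 0.24. Of the EphB receptors, Ephb2, Ephb6 and Ephb4 fell, by 0.39, 0.34 and 0.17, and Ephb3 rose by 0.17. Among the ephrins, Efna5 had 119, 112 and 112 CPM in ferroptotic medium, against 74.7, 72.1 and 70.4 CPM in control medium, and rose by 0.59. Efnb2 and Efnb1 rose by 0.45 and 0.17, while Efna1 and Efna2 fell by 0.52 and 0.28.

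**Figure D3:**
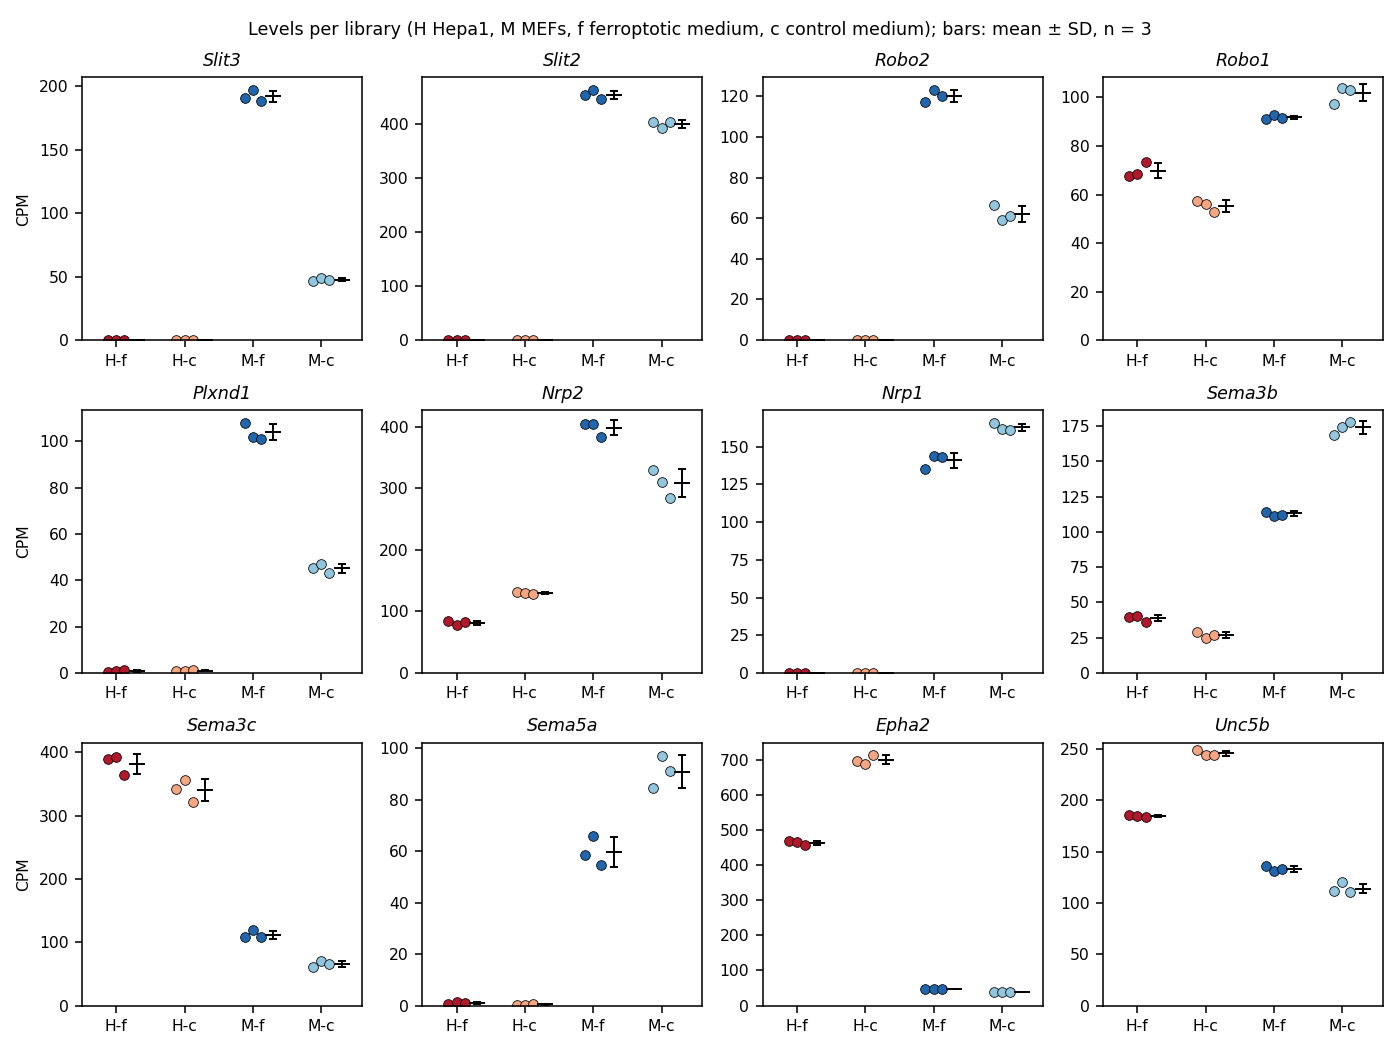
CPM of 12 guidance genes in each library (points) with the mean ± SD of each group beside them (n = 3), for Hepa1 in ferroptotic (H-f) and control medium (H-c) and MEFs in ferroptotic (M-f) and control medium (M-c). Slit3 lies at 188 to 197 CPM in MEFs in ferroptotic medium and at 46.2 to 48.6 CPM in control medium, and Slit2, Slit3, Robo2 and Nrp1 lie near 0 in Hepa1.

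In Hepa1, several abundant receptors were lower in ferroptotic than in control medium, among them Epha2, Nrp2, Unc5b and Ephb4. Of the 70 genes, 31 passed the filter, 10 rose and 14 fell. That is 32.3% higher and 45.2% lower, against 29.3% higher and 28.8% lower, 58.1% in all, over the 13169 genes tested. The higher calls include Plxnb3 and Sema5a, which passed the filter only through the ferroptotic libraries. The median log2 change was −0.12 against 0.00 over all genes tested, and the median absolute change 0.39 against 0.22. With scaling by library totals the split was 11 higher and 10 lower, since Ephb6, Plxna1, Plxna3 and Plxnb2 were no longer called and Sema4b was. The fibroblast markers summed to between 492 and 511 CPM in ferroptotic medium and 399 to 455 CPM in control medium. Most of that sum was Dcn, at 344, 350 and 309 CPM in ferroptotic medium against 307, 303 and 257 CPM in control medium. Col1a2 had 18.1 CPM in the third ferroptotic library, against 1.17 and 1.02 CPM in its companions. The 6 macrophage markers summed to between 10.5 and 13.0 CPM in ferroptotic medium and 26.9 to 32.9 CPM in control medium. Cd68 had 211 reads in ferroptotic medium and 1462 in control medium, and Csf1r had 144 and 206. Adgre1 and Lyz2 went the other way, with 118 and 202 reads in ferroptotic medium against 2 and 94 in control medium. Mrc1 had 1 read in each medium and Ptprc 0. The part of these shifts in the results was not tested.

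Epha2, a receptor for ephrin-A1 that is common in epithelial tumours (ENSMUSG00000006445, chromosome 4, 141301240 to 141329384), had 468, 465 and 456 CPM in ferroptotic medium, against 697, 689 and 714 CPM in control medium. It fell by 0.64 on the log2 scale with no overlap (SE 0.0316, edgeR adjusted p = 3.82e-16). Nrp2 (ENSMUSG00000025969, chromosome 1, 62703285 to 62818695) had 83.5, 77.4 and 83.4 CPM in ferroptotic medium, against 132, 129 and 128 CPM in control medium, and fell by 0.72 (SE 0.0404, edgeR adjusted p = 7.3e-15). Ntn4, a netrin of basement membranes (ENSMUSG00000020019, chromosome 10, 93640681 to 93747207), had 31, 30.5 and 28.3 CPM in ferroptotic medium, against 54.2, 53 and 57.1 CPM in control medium, and fell by 0.92 (SE 0.0548, edgeR adjusted p = 2.91e-14). These 3 genes were separated between media in every library. Unc5b fell by 0.45 with 186, 185 and 184 CPM in ferroptotic medium against 249, 244 and 244 CPM in control medium, and Ephb4 by 0.41 with 185, 187 and 184 CPM in ferroptotic medium against 244, 226 and 244 CPM in control medium. Sema4c had 47.3, 51.7 and 51.7 CPM in ferroptotic medium, against 76.4, 75.3 and 81.4 CPM in control medium, and fell by 0.68. Sema6c had 6.34, 4.95 and 5.06 CPM in ferroptotic medium, against 7.97, 8.61 and 9.94 CPM in control medium, and fell by 0.74. The exons of Ephb4 and Sema4c overlap Zan and D430040D24Rik, which lie on the opposite strand, and the strand setting of the counts is not known.

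The genes that rose in Hepa1 ranged from low to high level. Robo3, a Robo that in mammals binds Slits weakly, had 9.53, 7.86 and 7.56 CPM in ferroptotic medium, against 3.96, 3.91 and 4.84 CPM in control medium, a log2 change of 0.93 ± 0.126. Plxnb3, a receptor for Sema5a, had 0.913, 1.45 and 1.23 CPM in ferroptotic medium against 0.152, 0.25 and 0.206 CPM in control medium, a change of 2.47 ± 0.37 that rests on 12 reads in the control libraries. Sema5a itself was at 0.761, 1.29 and 0.933 CPM in ferroptotic medium against 0.406, 0.301 and 0.567 CPM in control medium, called higher by 1.17. That call was lost in DESeq2's Wald test (adjusted p = 0.0652). Plxnb3 and Sema5a both passed the low-count filter in Hepa1 only through the ferroptotic libraries. Robo1 had 67.6, 68.3 and 73.4 CPM in ferroptotic medium, against 57.2, 56 and 52.6 CPM in control medium, and rose by 0.29. Sema3b rose by 0.48 with 39.3, 40.3 and 36.4 CPM in ferroptotic medium against 28.7, 24.6 and 27 CPM in control medium. Sema3c, at 390, 392 and 364 CPM in ferroptotic medium against 342, 357 and 322 CPM in control medium, rose by 0.12, and the call was lost without the first or the second ferroptotic library (adjusted p of 0.0543 and 0.0661 in edgeR). Efnb1, Epha7, Sema6a and Efna3 rose by 0.41, 0.54, 0.45 and 0.28. In DESeq2's Wald test Epha7 and Efna3 were not called (adjusted p of 0.0538 and 0.114), and Efna3 was not called in edgeR without the first ferroptotic library either (adjusted p = 0.0641). Without the third ferroptotic library, 23 of the 24 calls were kept and that of Ephb6 was lost (edgeR adjusted p = 0.0556).

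The difference between the cell types' responses was tested as an interaction over the 12 libraries. Of 59 genes tested, 12 had a higher and 15 a lower response in Hepa1 than in MEFs, 20.3% and 25.4%, against 23.3% and 20.9%, 44.2% in all, over the 15627 genes tested. Both responses could be tested for 29 genes. Of these, 9 were called in opposite directions. The difference itself passed the test for all 9, but opposite calls in the same libraries make that nearly certain, so it adds no support. Over the 12042 genes tested in both cell types, 15.3% were called in opposite directions and 20.2% in the same direction. Epha2, Nrp2, Unc5b, Plxna1, Plxna3 and Plxnb2 fell in Hepa1 and rose in MEFs, and Robo1, Sema3b and Sema5a rose in Hepa1 and fell in MEFs. The Hepa1 changes of the 3 plexins were small, −0.11 for Plxna1, −0.18 for Plxna3 and −0.12 for Plxnb2. With scaling by library totals they were no longer called, which left 6 of the 9. Ntn4 and Plxnb1 were then called in opposite directions as well, 8 genes in all. Without the first or the second Hepa1 ferroptotic library Plxna1 and Plxna3 were not called in Hepa1, which left 7. The Hepa1 values of Plxna1 and Plxnb2 overlap between media. In DESeq2's Wald test Plxna3 and Sema5a were not called in Hepa1, which left 7. Another 9 were called in the same direction: Efnb1, Epha7, Sema3c and Sema6a rose in both, and Ephb4, Ephb6, Sema4c, Sema6b and Sema6c fell in both.

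**Figure D4:**
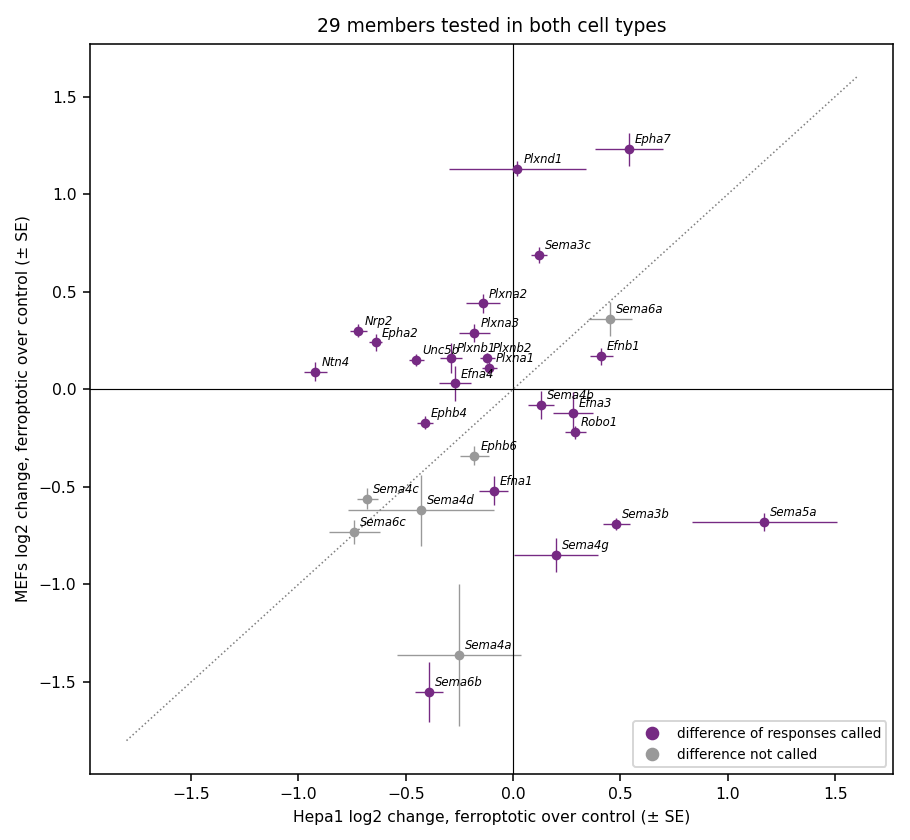
Log2 change in ferroptotic over control medium in Hepa1 (x axis) against MEFs (y axis) for the 29 guidance genes tested in both, with SE bars; purple points are those whose difference of responses passed an adjusted p of 0.05, and the dotted line marks equal changes. Nrp2, Epha2 and Unc5b lie upper left and Sema3b, Sema5a and Robo1 lower right.

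The difference (Hepa1 change minus MEF change, log2) was −1.02 ± 0.0596 for Nrp2 (SE; edgeR adjusted p = 7.59e-19) and −0.88 ± 0.0553 for Epha2 (edgeR adjusted p = 7.72e-18). It was −1.01 for Ntn4, which fell in Hepa1 and had a change of 0.09 in MEFs that did not pass the test, −0.60 for Unc5b and −0.56 for Sema3c. On the other side it was 1.18 ± 0.0666 for Sema3b (edgeR adjusted p = 2.23e-19), 0.51 for Robo1, 1.16 for Sema6b, 1.06 for Sema4g and 1.85 for Sema5a. Of the 9 plexins tested, 7 had a lower response in Hepa1: Plxna1, Plxna2, Plxna3, Plxna4, Plxnb1, Plxnb2 and Plxnd1. For Plxna4 the test rests on 0 reads in Hepa1 in ferroptotic medium and 2 in control medium. Without the third Hepa1 control library, 5 of the 9 had a lower response, as Plxna4 and Plxnd1 were no longer called (edgeR adjusted p = 0.0529 for Plxnd1). For Slit2 the difference was 3.09, on 13 reads in Hepa1 in ferroptotic medium and 1 in control medium. In the third Hepa1 ferroptotic library Slit2 stood at 0.491 CPM, where that library's share of the MEF level corresponds to 0.45 CPM, and without it the difference was no longer called for Slit2, Efna4, Plxna4, Sema3e and Sema4b. The 10 differences printed with values before the plexins kept their call without each library in turn.

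In control medium a mean of 1 CPM was reached in both cell types by 25 genes, in Hepa1 alone by Robo3 and Sema4a, in MEFs alone by 26 genes and in neither by 17. Sema4a had 0.914, 0.851 and 1.96 CPM in Hepa1, so it reached that mean through 1 library, and its 73 reads there against 48 in MEFs did not pass the test (edgeR adjusted p = 0.575). Of 59 genes tested, 12 were higher and 45 lower in Hepa1 than in MEFs, against 40.7% higher and 46.0% lower, 86.6% in all, over the 15627 genes tested. Many passed the low-count filter through the MEFs alone, so these counts are no support for a lower family level. Among the 25 genes present in both, 10 were higher and 15 lower in Hepa1. The same split over all genes at that level was not counted, so nothing about the family is read from it. With library totals in place of TMM scaling, the median of all genes moved by 0.56 on the log2 scale, all genes gave 9101 higher and 5004 lower in place of 6356 and 7181, and Efna1 and Efna3 turned from lower to higher.

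Epha2 was higher in Hepa1 by 3.62 ± 0.0389 on the log2 scale (SE; edgeR adjusted p = 2.12e-49), with the levels given above of 697, 689 and 714 CPM in Hepa1 against 39.3, 38.3 and 38.1 CPM in MEFs. Sema6b was higher by 1.99 with 30.1, 28.6 and 31 CPM in Hepa1 against 5.51, 5.34 and 4.43 CPM in MEFs, Sema3c by 1.80 and Plxnb1, a Sema4d receptor, by 1.23. Robo3 had 250 reads in Hepa1 and 0 in MEFs, 91.5-fold higher when 3 reads over the group stand in for 0. The lower end of its 95% interval for counting error was 73.9-fold. Plxnb3 had 12 reads in Hepa1 and 2 in MEFs, a read ratio of 6.59 (95% interval for counting error 1.47 to 60.6). In the other direction, Slit3, Robo2 and Ephb3, an ephrin-B receptor, had 0 reads in Hepa1 and 3077, 4029 and 5867 reads in MEFs. With 3 reads in place of 0 they were 934-fold, 1223-fold and 1780-fold lower in Hepa1. The lower ends of their 95% intervals were 759-fold, 994-fold and 1447-fold. Slit2 had 1 read in Hepa1 and 25848 in MEFs, a ratio of MEFs over Hepa1 of 23531 with an interval of 4223 to 929458. Ephb2 had 1 read in Hepa1 and 6662 in MEFs, a ratio of 6065 with an interval of 1088 to 239583. Nrp1 had 2 reads in Hepa1 and 10564 in MEFs, a ratio of 4809 with an interval of 1331 to 39711. Intervals cover counting error only, and the folds with 3 reads in place of 0 are no lower bounds.

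The pathway partners outside the families, 73 genes listed with earlier results of these data known, were also read. In MEFs 31 of 61 tested rose and 19 fell, where 27.8% of all genes rose and 27.2% fell, and in Hepa1 10 of 46 tested rose and 24 fell, where 29.3% of all genes rose and 28.8% fell. Flrt2, a membrane protein that binds Unc5 receptors, rose by 1.10 on the log2 scale in MEFs, with 258.0 ± 15.1 CPM in ferroptotic medium and 115.0 ± 4.69 CPM in control medium (SD, n = 3 each). Neo1, the netrin receptor neogenin, rose by 0.34 in MEFs with 609.0 ± 10.6 CPM in ferroptotic medium and 460.0 ± 10.9 CPM in control medium. In Hepa1 it fell by 0.14, with 66.5 ± 4.44 CPM in ferroptotic medium and 71.0 ± 2.87 CPM in control medium. Of the semaphorin effectors, Mical2, an actin-oxidising enzyme, fell in both, by 1.24 in MEFs and 0.51 in Hepa1, and Rnd1, a small GTPase that binds plexins, fell by 1.40 in Hepa1, with 30.9 ± 1.35 CPM in ferroptotic medium and 78.9 ± 2.83 CPM in control medium, and by 0.82 in MEFs. Dpysl3, a collapsin response mediator protein, fell by 0.96 in MEFs. In Hepa1 Met, the hepatocyte growth factor receptor that partners plexin-B receptors, fell by 0.73 (by 0.49 in MEFs), Lrig1 by 0.61, Stat3 by 0.51 and Vav2, an exchange factor downstream of Eph receptors, by 0.37. Ablim1, an actin-binding LIM protein, rose by 1.87 in Hepa1 with 306.0 ± 5.02 CPM in ferroptotic medium and 80.9 ± 8.58 CPM in control medium, and by 0.39 in MEFs, and Maged1, which binds Unc5a, rose by 0.51. In MEFs Dapk1 rose by 0.60, Gpc1, a heparan sulfate proteoglycan that binds Slits, by 0.50, and the adaptor Nck2 by 0.34, while Itsn1 fell by 0.20.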

How the data were processed

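Per the labels' protocols, RNA came from the RNeasy Plus mini kit and libraries from 100 ng of it with NEBNext Ultra II RNA. Per the submitters' processing notes, the tools were HTSeq 0.9.1, STAR 2.7.10a, Trimmomatic 0.39 and FastQC 0.11.9 on GRCm38 (mm10). The sources used here give neither the annotation release nor the strand setting. The authors deposited raw read counts per Ensembl gene, and 5 HTSeq summary lines were set apart (no feature 2.00 to 2.58%, ambiguous 3.66 to 4.03% of reads). GENCODE M21 named 55141 of 55487 identifiers. Exons of 15 of the 70 genes overlap an opposite-strand gene, and reads of such pairs could not be separated.

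Groups came from the sample titles. Levels are plain CPM of a library's counted reads. Tests used edgeR 4.0.16 in R 4.3.3 (filterByExpr, TMM scaling, quasi-likelihood F-test, Benjamini-Hochberg over all genes tested, calls at an adjusted p under 0.05), on 6 libraries for each medium comparison and on 12 for the difference of responses and the cell types. SE are the log2 change over the root of F. Alternatives were DESeq2 1.42.0, limma 3.58.1 (voom), other scalings and filters, a replicate block and leaving out each library. The code was tested on simulated data.

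The genes, lists and tests were chosen with earlier results of these data known. Named genes are the called genes with at least 1 CPM and a log2 change of at least 0.58, the 5 differences per direction with the smallest adjusted p, the 6 per direction with the largest cell type difference, the 8 with the highest length-scaled level, and up to 2 genes of each pathway list. Others appear by role, or were chosen after their values were seen. Separate cultures are not stated for the replicates, so a p-value here reflects the spread among these libraries alone, and that spread may be technical.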

Additional observations from a re-analysis of the deposited data

Results flagged for a closer look

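For 10 guidance genes, those with the smallest adjusted p in each direction, the response to ferroptotic medium differed between Hepa1 and MEFs in the interaction test. The difference (Hepa1 change minus MEF change, log2) was 1.18 for Sema3b, 0.51 for Robo1, 1.16 for Sema6b, 1.06 for Sema4g and 1.85 for Sema5a. It was −1.02 for Nrp2, −0.88 for Epha2, −1.01 for Ntn4, −0.60 for Unc5b and −0.56 for Sema3c. Of these, Sema3b, Robo1, Sema5a, Nrp2, Epha2 and Unc5b were called in opposite directions in the 2 cell types. The Hepa1 call of Sema5a rests on 58 reads in ferroptotic medium and 25 in control medium. Sema5a passed the low-count filter in Hepa1 only through the ferroptotic libraries, and its call there was lost in DESeq2's Wald test (adjusted p = 0.0652). Sema6b fell in both and Sema3c rose in both, by different amounts. Groups of 3 libraries are too small to test for a single library far from the others.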

How the results depend on the processing

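Counts of guidance genes called stayed within 1.5 times the reported count under every alternative run. In Hepa1, 10 higher and 14 lower became 8 to 12 and 12 to 14 when a library was left out, and 7 to 11 and 10 to 14 under the other alternatives. In MEFs, 27 higher and 19 lower became 27 to 28 and 19 to 20, and 26 to 30 and 17 to 19. For the difference of responses, 12 and 15 became 9 to 12 and 12 to 15, and 9 to 14 and 13 to 17. For the cell types, 12 and 45 became 10 to 12 and 45 to 46, and 10 to 15 and 43 to 46. No called direction turned in the medium comparisons. In the cell type comparison Efna1 and Efna3 turned under library totals.

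Deviations of same-numbered libraries correlated at −0.0125 to 0.034, so the numbers were not read as pairs. With the replicate number as a block, Hepa1 gave 10 higher and 14 lower and MEFs 27 and 19, with the same genes kept, and the difference of responses gave 11 and 15, without Sema4b. Plxnb3 lost its cell type call under 6 alternatives, with adjusted p of 0.0504 to 0.13 in edgeR or DESeq2. Levels scaled by TMM over all 12 libraries in place of plain CPM were lower in Hepa1 and higher in MEFs for each of the 16 leading levels, for example 588 in place of 700.0 CPM for Epha2 in Hepa1 and 916 in place of 738 CPM for Plxnb2 in MEFs, both in control medium. Depth limits the genes with under about 20 reads in a group, such as Ntng1, Unc5a, Plxna4 and Plxnb3 in control medium.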

Other observations

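For some guidance genes near the floor in a cell type, reads are given here. In Hepa1, Sema3f, Sema3e, Efnb3 and Sema3g had 21, 11, 31 and 15 reads over the 3 libraries in ferroptotic medium, against 7, 2, 16 and 5 reads in control medium. Sema4f and Epha4 went the other way, with 2 and 0 reads against 8 and 3. The difference of responses was called for Sema3f and Sema3e (edgeR adjusted p = 0.011 and 0.0277). Both calls were lost without the third Hepa1 control library. In MEFs, Epha5 had 15 reads in ferroptotic medium and 3 in control medium, and Slit1 had 8 reads in ferroptotic medium and 1 in control medium. The netrin receptor Dcc, outside the chosen families, stood at 0.40 ± 0.135 CPM in MEFs in ferroptotic medium and 0.063 ± 0.0719 CPM in control medium (SD, n = 3 each).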
